A study of Mus musculus with 12 samples.

Results

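A panel of 35 proliferation and mitosis genes was followed in heart ventricle RNA of 12 mice, the offspring of males that had or had not undergone a heart injury. The genes were taken by symbol, from G1 cyclins to cytokinesis factors. All 35 were found among the 78317 gene IDs of the count table, and all 35 were among the 17130 genes that passed the filter on low counts. They are few and weakly expressed genes in this tissue: the panel took between 8913 and 12194 of the 30537315 to 42090257 counts in each library.

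The animals were C57BL/6J mice and none of them was itself injured. In 6 of them, called injured-sire replicates 12 to 17, the father had received a cardiac cryoinjury, a freeze lesion of the heart wall, on postnatal day 1, and in the other 6, uninjured-sire replicates 18 to 23, the father was not injured. Ventricles were taken at 3 wpp, the age the labels also give for weaning, although the same labels call the offspring adult. By the labels, the offspring of injured sires were 3 males with 3 females and those of uninjured sires 4 males with 2 females, but the sex of each animal is not given. They give no sire, litter or collection batch per animal, so each p-value below measures the spread between these animals only. Injured-sire replicate 16, an outlier by the labels, is shown throughout but left out of the comparison, which set 5 libraries against 6.

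A dividing cell passes from G1 into DNA synthesis when D cyclins with CDK4 and CDK6, and then E cyclins with CDK2, release E2F transcription factors. MCM helicases and PCNA then copy the DNA, and cyclin B with CDK1 drives mitosis until the anaphase-promoting complex ends it and anillin and the central spindle part the daughter cells. Mouse cardiomyocytes largely leave this cycle soon after birth, many with a last round of DNA synthesis that yields cells with a pair of nuclei, while endothelial cells, fibroblasts and blood-derived cells of the heart can still divide.

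Many genes of late S phase and mitosis are read from promoters that carry a CHR element with a CCAAT box, while genes of DNA replication often carry E2F sites. RefSeq promoter windows on GRCm38.p6 were matched for 28 of the 35 members, but not for Ccnd1, Ccnd2, Ccne2, Ccna2, Aurkb, Tpx2 or Kif20a. The 250 bases before the start were searched on both strands for TTTGAA and TTCGAA (CHR), for CCAAT, and for TTTCCCGC, TTTCGCGC, TTTGCCGC and TTTGGCGC (E2F), with overlapping matches counted. The 6 windows printed here, read 5′ to 3′ on the coding strand, were chosen to span what the panel holds: Top2a and Mki67 with several CHR and CCAAT matches, Cdk1 with all 3 kinds, Mcm6 as the replication gene, Cenpf as the member with the lowest mean correlation with the others over 12 libraries, and Anln as the member with the smallest p between the sire groups. Capitals mark the matches on either strand, so that ATTGG is CCAAT read on the other strand.
Top2a, chr11:99024190-99024439, minus strand: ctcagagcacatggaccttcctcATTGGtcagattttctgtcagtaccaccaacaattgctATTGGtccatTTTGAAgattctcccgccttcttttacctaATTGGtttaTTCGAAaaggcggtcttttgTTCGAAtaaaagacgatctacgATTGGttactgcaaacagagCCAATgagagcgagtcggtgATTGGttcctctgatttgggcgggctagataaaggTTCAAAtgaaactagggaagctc
Mki67, chr7:135716380-135716629, minus strand: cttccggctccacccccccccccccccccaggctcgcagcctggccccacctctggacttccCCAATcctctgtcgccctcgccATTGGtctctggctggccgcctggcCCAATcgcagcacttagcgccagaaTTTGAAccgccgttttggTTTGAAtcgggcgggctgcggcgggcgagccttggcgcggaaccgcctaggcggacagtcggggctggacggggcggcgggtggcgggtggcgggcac
Cdk1, chr10:69352913-69353162, minus strand: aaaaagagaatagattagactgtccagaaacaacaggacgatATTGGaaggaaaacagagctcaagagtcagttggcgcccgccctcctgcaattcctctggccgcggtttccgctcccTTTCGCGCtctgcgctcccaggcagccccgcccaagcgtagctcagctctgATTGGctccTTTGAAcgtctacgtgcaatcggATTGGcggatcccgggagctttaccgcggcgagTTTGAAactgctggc
Mcm6, chr1:128359706-128359955, minus strand: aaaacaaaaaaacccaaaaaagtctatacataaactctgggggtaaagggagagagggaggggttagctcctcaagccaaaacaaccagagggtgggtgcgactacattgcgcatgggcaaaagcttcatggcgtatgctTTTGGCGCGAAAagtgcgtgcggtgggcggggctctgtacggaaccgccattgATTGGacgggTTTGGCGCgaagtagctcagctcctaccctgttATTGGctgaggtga
Cenpf, chr1:189688087-189688336, minus strand: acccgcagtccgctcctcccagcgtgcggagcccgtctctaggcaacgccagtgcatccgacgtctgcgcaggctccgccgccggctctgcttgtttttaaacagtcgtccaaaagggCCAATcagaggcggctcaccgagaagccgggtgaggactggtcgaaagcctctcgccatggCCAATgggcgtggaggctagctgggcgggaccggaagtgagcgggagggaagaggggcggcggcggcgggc
Anln, chr9:22389207-22389456, minus strand: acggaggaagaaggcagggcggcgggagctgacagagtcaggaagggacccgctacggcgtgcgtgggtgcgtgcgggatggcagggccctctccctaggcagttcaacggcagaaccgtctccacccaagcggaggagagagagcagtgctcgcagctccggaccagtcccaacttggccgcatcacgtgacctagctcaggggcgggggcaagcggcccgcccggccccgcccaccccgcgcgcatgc

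The Top2a window held 4 CHR and 6 CCAAT matches, that of Mki67 held 2 and 3, and that of Cdk1 held 2 CHR, 3 CCAAT and 1 E2F match. Mcm6 had 2 CCAAT and 3 E2F matches, of which 2 overlap in the run TTTGGCGCGAAA, and Cenpf had 2 CCAAT matches alone. The Anln window held none of these letters. Over the 28 matched members, the first listed window held CCAAT in 23 (82.1%), against 33.8% of all 32851 promoter windows of that length. A CHR together with CCAAT was found in 10 members (35.7%) against 6.02% of all windows, and an E2F match in 3 members, Mcm5, Mcm6 and Cdk1 (10.7%), against 1.86%. These are matches of letters, not measured binding sites.

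The label of heart tissue was borne out by its markers. The 8 cardiomyocyte markers (among them Myh6, Tnnt2 and Ryr2) summed to between 75758 and 92619 CPM (counts for each 1000000 of a library, scaled by TMM) in the 12 libraries, with all 8 counted. Airway markers were uneven. The 8 of them summed to between 33.99 and 553 CPM in the 5 injured-sire libraries compared and to between 0.431 and 338 CPM in the uninjured-sire libraries. In replicate 16 they summed to 0.459 CPM. Fat markers varied too, with Ucp1 at 77 to 8510 counts and Adipoq at 108 to 1539 over the 12 libraries. All 8 fat markers had higher point estimates in the injured-sire group, and 0 were called. The source of the airway and fat RNA was not tested. No library repeated another: within each group the counts of any pair differed beyond sampling noise, with a chi-square statistic over genes of 13.3 to 40.3 times its degrees of freedom in 30 pairs. In bulk tissue fewer cells of a type and less RNA per cell cannot be told apart, which holds for every level given here.

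Residual expression of the panel was low and led by genes of G1 and replication. Levels between genes are given as CPM per kilobase of exon, mean ± SD over the 12 libraries. Ccnd2, a D cyclin, stood highest at 12.6 ± 1.13, followed by Pcna, the sliding clamp of DNA polymerase, at 11.6 ± 1.15, and these 2 lay within their SDs of each other. Ccnd1 came next at 7.43 ± 0.946, apart from Pcna above it and from Mcm6, a subunit of the MCM helicase, at 2.25 ± 0.366. From Mcm6 downwards every member lay within the SDs of its neighbour in the order, so adjacent ranks there are not separate levels. Members further apart in the order can still differ beyond their SDs, as Mcm6 does from Mki67 at 0.555 ± 0.139.

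Mki67, the usual marker of cycling cells, stood at 0.555 ± 0.139 CPM per kilobase, rank 16 of 35, at the 25.7th percentile of the genes tested. Top2a, the topoisomerase that untangles chromosomes, stood at 0.444 ± 0.144, Cdk1 at 0.286 ± 0.0954, and the lowest members were the checkpoint kinase Bub1 at 0.0963 ± 0.0430 and Ccnb1 at 0.0908 ± 0.0513. Only 3 members (Ccnd2, Pcna and Ccnd1) lay above the 50th percentile of all genes tested and 19 lay under the 25th, with a median percentile of 22.5. In CPM, 18 members averaged under 2 CPM and 7 of those under 1 CPM.

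**Figure D1:**
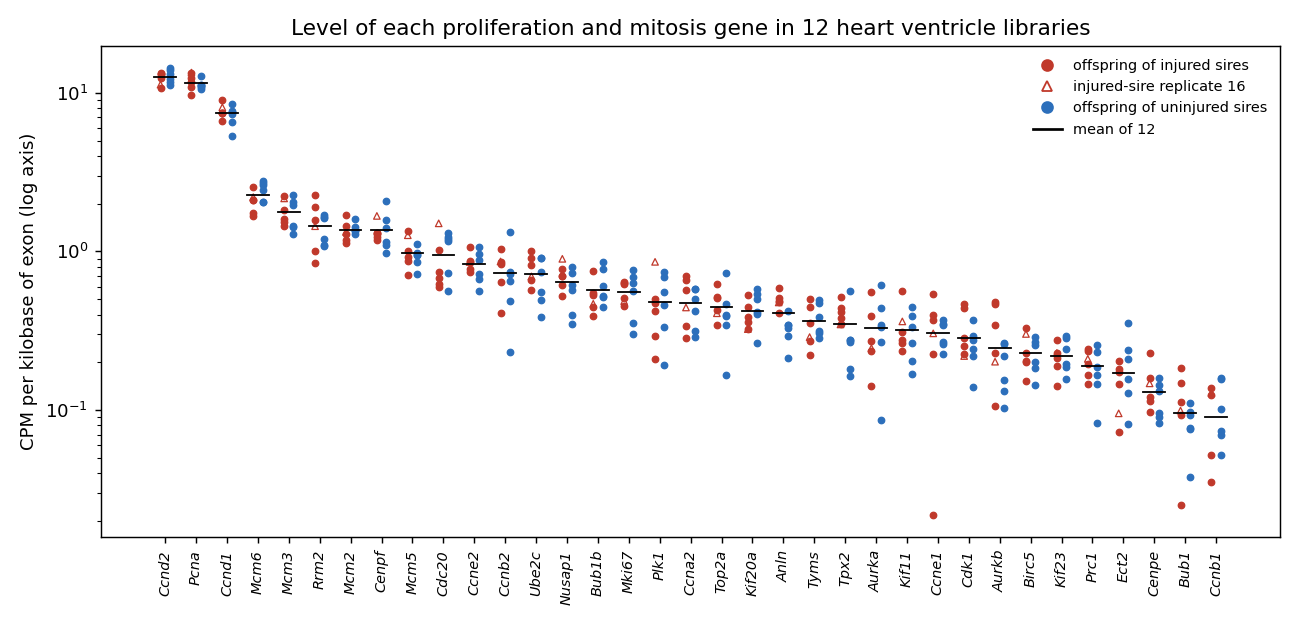
Level of each of the 35 genes in 12 heart ventricle libraries, in CPM per kilobase of exon on a log axis, 1 point per library (filled circles by sire group, open triangle for injured-sire replicate 16) and a bar for the mean of 12. Ccnd2, Pcna and Ccnd1 stand above all others, and the 0 of Ccnb1 in injured-sire replicate 12 cannot be drawn on this axis.

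The spread of the members between animals differed between role groups and with level. The biological coefficient of variation, edgeR's estimate of spread beyond counting, had a median of 31.1% over the panel and 15.8% over all genes tested. The mitotic cyclins and kinases were the most variable role group, with a median of 43.9%, and the G1 cyclins the least, with 18.6%. The estimate tended to be larger for members of low level. As a fraction it was 0.105 for Ccnd2 and 0.110 for Pcna, but 0.646 for Ccnb1 and 0.522 for the G1 cyclin Ccne1, at 0.814 CPM. Differences by role, and between the panel and all genes, thus cannot be told apart from level here. Some pseudogenes closely copy members, at 95% identity or more over at least 200 bases: 4 copies of Ccnb1 and 1 copy each of Pcna, Tyms, Rrm2 and Mki67. For Ccnb1, with up to 1294 bases at 98.1% identity, the level is therefore uncertain, since reads could be split or dropped between copies. The same limit holds for Pcna and its place in the order of levels, as its copy matches 781 of 1518 transcript bases at 99.2% identity.

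No member of the panel was called between the sire groups. By edgeR's quasi-likelihood test with Benjamini-Hochberg adjustment over 17130 genes, 0 of 35 members passed an adjusted p of 0.05, against a background of 18 genes (0.105%), of which 9 were higher (0.0525%) and 9 lower (0.0525%). At an unadjusted p under 0.05 there was 1 member, Anln, which was higher in the injured-sire group, where 8.96% of all genes tested reached that level and 4.28% did so as higher. The DESeq2 Wald test also called 0 members (2 had no adjusted p). The point estimates ran from -0.52 (Ccnb1) to 0.79 (Aurkb) in log2 fold change, injured-sire minus uninjured-sire, with 22 members higher and 13 lower and a median of 0.07, beside 0.00 over all genes tested. None of the 35 had groups that did not overlap in CPM, where the background was 1.22% in either direction and 0.327% with the injured-sire group higher.

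The precision for these low genes was limited. The half-width of a member's 95% confidence interval had a median of 0.56 on the log2 scale, which is a 1.47-fold difference, against 0.26 over all genes. These intervals are not adjusted for the number of genes tested, so a call for a typical member needed a larger difference than that. Anln at 0.63 and Aurkb at 0.79 in log2 were not called, with edgeR adjusted p of 0.229 and 0.634.

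**Figure D2:**
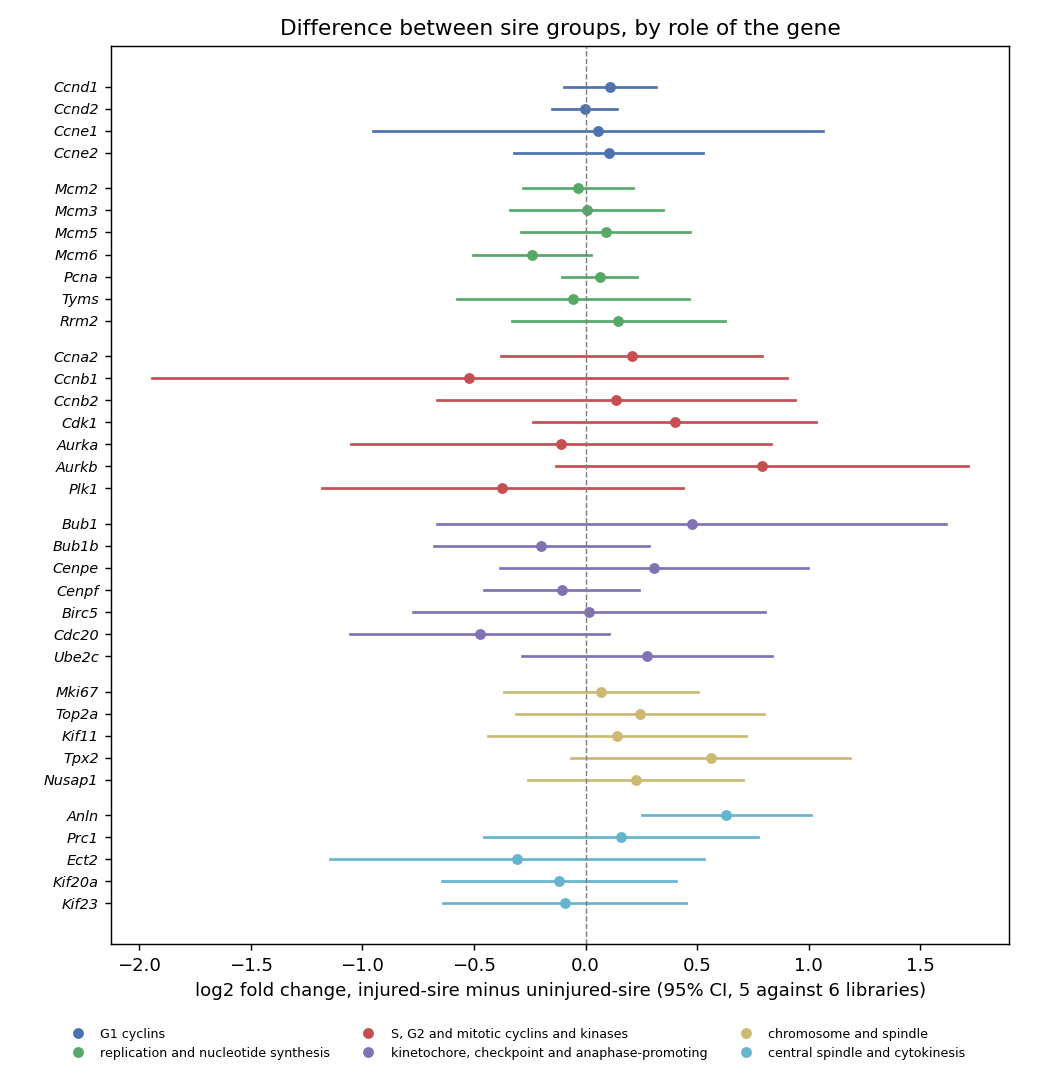
Log2 fold change of each member between offspring of injured and uninjured sires, with its 95% confidence interval, ordered and coloured by role (5 against 6 libraries). All intervals cross 0 except that of Anln. The median half-width is 0.81 for the mitotic kinases and cyclins, 0.31 for the G1 cyclins and 0.34 for the replication genes. The G1 cyclin Ccne1 has a wide interval, from -0.95 to 1.06.

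The G1 cyclins, which open the cycle, differed little. Of 4 measured, 3 had higher and 1 a lower point estimate, with a median log2 fold change of 0.08. Ccnd1 (ENSMUSG00000070348, chromosome 7, 144483668 to 144493662 on GRCm39) read 34.99, 35.1, 42.5, 31.4 and 35.2 CPM in injured-sire replicates 12, 13, 14, 15 and 17 and 38.2 CPM in replicate 16, and ranged from 25.2 to 39.9 CPM, median 35.1, over the 6 uninjured-sire libraries. The groups overlapped along most of their range, with uninjured-sire replicate 22 lowest of all. Its means were 35.9 ± 4.06 (SD, n = 5) and 33.7 ± 5.07 CPM (SD, n = 6), or 0.11 ± 0.0982 (SE) in log2 fold change, with an adjusted p of 0.814 by edgeR's quasi-likelihood test and Benjamini-Hochberg adjustment. The estimate was 0.04 when either injured-sire replicate 14 or uninjured-sire replicate 22 was left out.

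Ccnd2 (chromosome 6, 127102125 to 127129156), the most abundant member, read 126, 101, 124, 124 and 116 CPM in the injured-sire libraries compared, 106 CPM in replicate 16, and from 106 to 134 CPM, median 120, in the uninjured-sire libraries. Both groups covered nearly the same range, and means of 118 ± 10.2 and 120 ± 11.4 CPM gave an edgeR adjusted p of 0.993. The E cyclins Ccne1 and Ccne2, which act with CDK2 at the start of S phase, averaged 0.825 ± 0.521 against 0.805 ± 0.154 CPM and 3.01 ± 0.443 against 2.84 ± 0.676 CPM. Injured-sire replicate 17 had the lowest Ccne1, 2 counts or 0.058 CPM, and the other 4 injured-sire libraries compared ranged from 0.596 to 1.43 CPM.

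Among the 7 genes of DNA replication and nucleotide synthesis, 4 had higher and 3 lower point estimates, with a median log2 fold change of 0.00. Mcm6 (chromosome 1, 128259327 to 128287401), whose promoter window is printed above, read 7.85, 8.16, 9.87, 11.9 and 9.80 CPM in injured-sire replicates 12, 13, 14, 15 and 17, 10.3 CPM in replicate 16, and 9.50 to 13.1 CPM, median 11.8, in uninjured-sire libraries. Replicates 12 and 13 lay below every uninjured-sire library and the other injured-sire libraries lay inside their range. The means of 9.51 ± 1.61 and 11.4 ± 1.54 CPM differed by -0.24 ± 0.127 in log2 (SE; edgeR adjusted p = 0.602). The other helicase subunits did not share this estimate, at -0.03 for Mcm2, 0.00 for Mcm3 and 0.09 for Mcm5, and whether they differ from Mcm6 was not tested.

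Pcna (chromosome 2, 132091082 to 132095234) read 23.4, 29.6, 26.3, 28.1 and 32.1 CPM in the injured-sire libraries, 32.2 CPM in replicate 16, and 25.4 to 30.7 CPM, median 26.6, in the uninjured-sire libraries. The uninjured-sire range lay wholly inside the injured-sire one, and the means of 27.9 ± 3.30 and 27.1 ± 1.88 CPM gave an edgeR adjusted p of 0.884. Rrm2, a subunit of ribonucleotide reductase, and Tyms, thymidylate synthase, which both make DNA precursors, had log2 fold changes of 0.15 and -0.06.

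Of the 7 S, G2 and mitotic cyclins and kinases, 4 had higher and 3 lower point estimates, with a median log2 fold change of 0.14. Cdk1 (chromosome 10, 69170976 to 69188768), the kinase that drives entry into mitosis, read 1.40, 2.17, 1.12, 2.29 and 1.25 CPM in the injured-sire libraries compared, 1.08 CPM in replicate 16, and 0.684 to 1.82 CPM, median 1.29, in uninjured-sire libraries. Replicates 13 and 15 lay above every uninjured-sire library and the rest were interleaved. The means of 1.65 ± 0.548 and 1.27 ± 0.381 CPM differed by 0.40 ± 0.305 in log2 (SE; edgeR adjusted p = 0.771), or by 0.25 without injured-sire replicate 15.

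Aurkb (chromosome 11, 68936473 to 68942490), the kinase of the chromosomal passenger complex, had the highest point estimate of the panel. Its libraries read 0.674, 1.37, 1.01, 0.311 and 1.42 CPM in the injured-sire group, 0.594 CPM in replicate 16, and 0.301 to 0.781 CPM, median 0.551, in the uninjured-sire group. Replicates 13, 14 and 17 stood above every uninjured-sire library while 12 and 15 stood inside their range. Means of 0.957 ± 0.471 and 0.557 ± 0.204 CPM differed by 0.79 ± 0.445 (SE) in log2, with an edgeR adjusted p of 0.634.

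Ccnb1 (chromosome 13, 100915158 to 100923078), the cyclin B partner of CDK1 and the member with the most pseudogene copies, was at 0 counts in injured-sire replicate 12, where 3 counts would be 0.0778 CPM. It read 0.149, 0.218, 0.526 and 0.580 CPM in injured-sire replicates 13, 14, 15 and 17, 0.540 CPM in replicate 16, and 0.219 to 0.672 CPM, median 0.369, in uninjured-sire libraries. The 3 lowest of the libraries compared were all from the injured-sire group, and the groups overlapped above that. The highest of those 3, replicate 14, was nearly level with uninjured-sire replicate 22, at 8 counts in each. The means of 0.295 ± 0.249 and 0.430 ± 0.194 CPM differed by -0.52 ± 0.685 (SE) in log2, with an edgeR adjusted p of 0.885. The estimate was -0.20 without injured-sire replicate 12, -0.84 without 15 and -0.91 without 17, and -1.05 with limma voom. Ccna2, Ccnb2, Aurka and Plk1, which bracket mitotic entry, ranged from -0.37 (Plk1) to 0.21 (Ccna2) in log2 fold change.

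Kinetochore, checkpoint and anaphase-promoting genes were split, with 4 of 7 point estimates higher, 3 lower and a median log2 fold change of 0.01. Cdc20 (chromosome 4, 118290098 to 118294549), which activates the anaphase-promoting complex, read 1.27, 1.16, 1.12, 1.39 and 1.91 CPM in the injured-sire libraries compared, 2.81 CPM in replicate 16, and 1.05 to 2.46 CPM, median 2.20, in the uninjured-sire libraries. Uninjured-sire replicate 20 lay below the 5 injured-sire values, replicate 22 among them and the other 4 above them, while the excluded replicate 16 was the highest of the 12. The means of 1.37 ± 0.321 and 1.93 ± 0.575 CPM differed by -0.47 ± 0.280 in log2 (SE; edgeR adjusted p = 0.657), or by -0.25 with replicate 16 included.

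Ube2c, the ubiquitin-conjugating enzyme of the same complex, pointed the other way at 0.27, and neither passed the test. The checkpoint kinase Bub1 and its relative Bub1b had estimates of 0.48 and -0.20, the kinetochore motor Cenpe 0.31, and survivin, encoded by Birc5, 0.01. Cenpf, a kinetochore protein, averaged 19.5 ± 0.822 against 21.3 ± 6.15 CPM. Its uninjured-sire libraries spread from 15.2 to 31.9 CPM and the 5 injured-sire libraries compared from 18.3 to 20.2 CPM, while replicate 16, left out of the comparison, had 25.8 CPM.

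All 5 chromosome and spindle genes had higher point estimates in the injured-sire group, and their median was 0.22 in log2 fold change, but 0 of 5 passed the test. Mki67 (ENSMUSG00000031004, chromosome 7, 135291513 to 135318090) read 5.11, 6.41, 6.43, 6.26 and 4.58 CPM in injured-sire replicates 12, 13, 14, 15 and 17, 4.89 CPM in replicate 16, and 3.01 to 7.71 CPM, median 6.03, in uninjured-sire libraries. The injured-sire values sat in the middle of the uninjured-sire range, whose lowest libraries were replicates 22 (3.01 CPM) and 23 (3.55 CPM). The means of 5.76 ± 0.857 and 5.55 ± 1.89 CPM differed by 0.07 ± 0.208 (SE) in log2 (edgeR adjusted p = 0.960), with a 95% confidence interval for the fold of 0.777 to 1.42. Its sign was not stable: without replicate 22 the estimate was -0.06, and without replicate 23 it was -0.03.

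Top2a (chromosome 11, 98883769 to 98915015) read 3.11, 3.87, 4.58, 4.64 and 5.65 CPM in the injured-sire libraries, 3.67 CPM in replicate 16, and 1.51 to 6.57 CPM, median 3.53, in the uninjured-sire libraries. The uninjured-sire group held both the highest library (replicate 18) and the lowest (replicate 22). Means of 4.37 ± 0.949 and 3.74 ± 1.66 CPM gave 0.24 ± 0.265 in log2 (SE; edgeR adjusted p = 0.852), and leaving out 1 library moved it between 0.08 (without uninjured-sire replicate 22) and 0.48 (without uninjured-sire replicate 18).

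Tpx2 (chromosome 2, 152689884 to 152737241), which activates Aurora A on the spindle, read 1.79, 2.41, 1.94, 2.06 and 1.62 CPM in the injured-sire libraries, 1.62 CPM in replicate 16, and 0.766 to 2.63 CPM, median 1.27, in the uninjured-sire libraries. All 6 injured-sire libraries stood above 5 of the 6 uninjured-sire libraries, and uninjured-sire replicate 19 stood above them all. The means of 1.96 ± 0.299 and 1.35 ± 0.672 CPM differed by 0.56 ± 0.301 in log2 (SE; edgeR adjusted p = 0.605), or by 0.86 without uninjured-sire replicate 19. The mitotic motor Kif11 and the microtubule bundler Nusap1 had estimates of 0.14 and 0.22.

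The central spindle and cytokinesis genes had 2 higher and 3 lower point estimates of 5, with a median of -0.09. Anln (chromosome 9, 22243308 to 22300484), which encodes anillin, the scaffold of the cleavage furrow, read 3.71, 5.33, 4.61, 4.37 and 4.44 CPM in the injured-sire libraries compared, 4.32 CPM in replicate 16, and 1.94 to 3.83 CPM, median 3.04, in the uninjured-sire libraries. The groups met at 1 point only, where uninjured-sire replicate 19 (3.83 CPM) stood above injured-sire replicate 12 (3.71 CPM). The means of 4.49 ± 0.582 and 2.94 ± 0.626 CPM differed by 0.63 ± 0.182 in log2 (SE; 95% confidence interval 0.25 to 1.01; edgeR adjusted p = 0.229), so the difference did not pass the adjustment over all genes. Over the alternatives its adjusted p ran from 0.0767 (DESeq2 Wald test) to 0.956 (a clock score as covariate).

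The estimates of the other genes of the cleavage apparatus were lower than that of Anln, with confidence intervals that overlap its own, and whether they differ from it was not tested. Ect2, which activates RhoA at the cell equator, had -0.31, the central spindle kinesins Kif20a and Kif23 had -0.12 and -0.09, and the bundler Prc1 had 0.16. None of these 4 passed the test.

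Summed over all 35 members, the panel reached 287 ± 11.3 CPM (SD, n = 5) in the injured-sire libraries and 286 ± 20.2 CPM (SD, n = 6) in the uninjured-sire libraries, a ratio of 1.00. The sum ranged from 254 CPM in uninjured-sire replicate 22 to 313 CPM in replicate 19, and Ccnd2 alone made up 36.8% to 46.3% of it. Without the 4 most abundant members in CPM, Ccnd1, Ccnd2, Pcna and Cenpf, the other 31 summed to 83.7 ± 7.60 against 81.7 ± 12.2 CPM. The library that stood apart was again replicate 22, at 60.7 CPM, and the highest were uninjured-sire replicate 19 at 94.5 and injured-sire replicate 17 at 93.8 CPM.

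**Figure D3:**
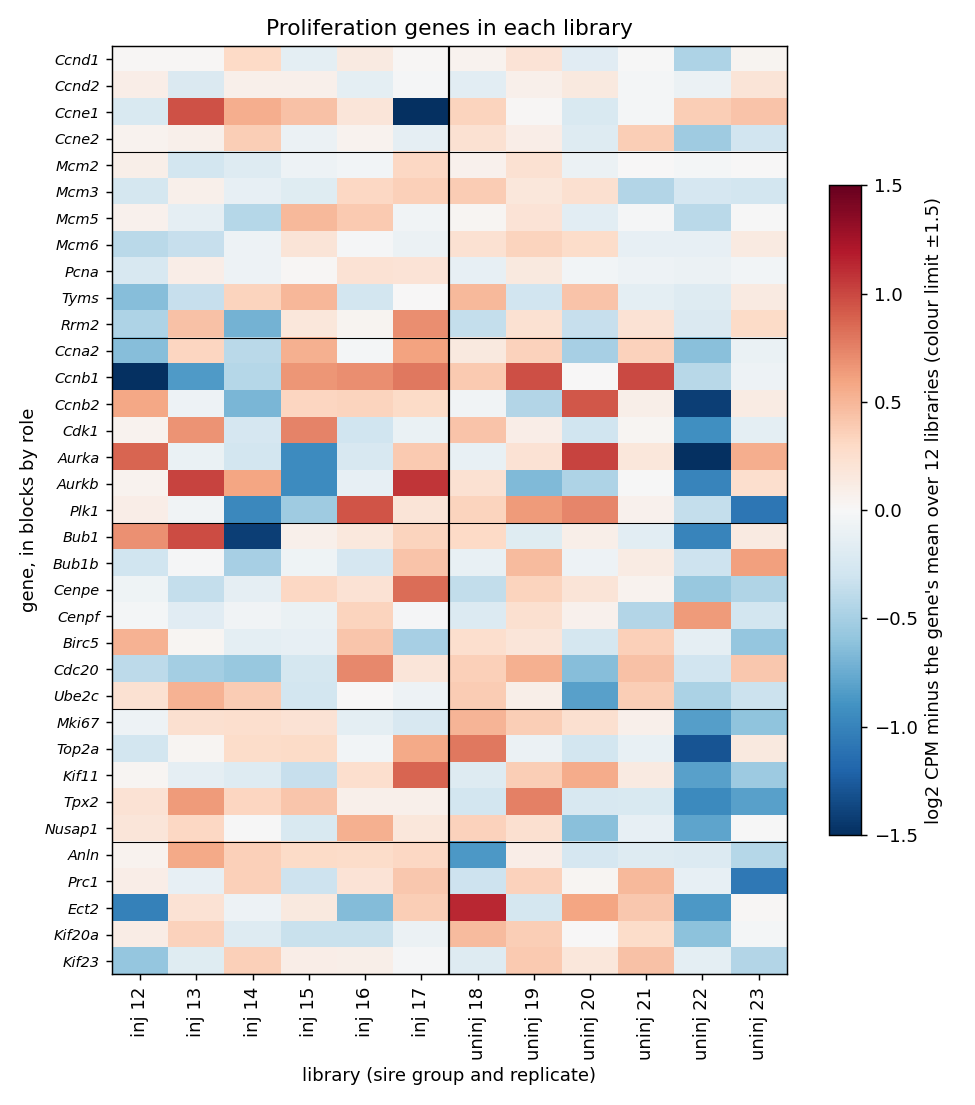
Log2 CPM of each member minus its mean over the 12 libraries, with rows in blocks by role and columns by sire group and replicate. The column of uninjured-sire replicate 22 is below the mean in 33 of 35 members, and Cenpf has its highest value there.

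Uninjured-sire replicate 22 had low values across nearly the whole panel. In it 33 of 35 members (94.3%) lay below their own mean over the 12 libraries, against 45.5% of all genes tested, and 13 members (37.1%) had their lowest value there, against 5.37% of all genes. As means over each role group of log2 CPM minus the gene's own mean, the chromosome and spindle genes stood at -0.94 and the mitotic cyclins and kinases at -0.89, the cytokinesis genes at -0.39, the kinetochore genes at -0.30, and the replication genes and G1 cyclins at -0.19 and -0.18. These role means were not tested against each other, and members within a role differed: of the G1 cyclins, Ccnd1 stood at -0.46 and Ccne2 at -0.54 while Ccne1 stood at 0.36. Ccne1 and Cenpf were the 2 members above their mean in replicate 22, which had the highest Cenpf of the 12 libraries, 31.9 CPM.

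Other measures of replicate 22 also lay at or near an end of the uninjured-sire range. Its erythroid markers had the highest mean log2 CPM of the 12 libraries. Its summed cardiomyocyte markers were the lowest of the 12 (75758 CPM). The 8 macrophage and leukocyte markers summed to 258 CPM, near the top of the uninjured-sire range of 209 to 267 and above the injured-sire range of 177 to 228. Its clock score, the mean log2 CPM of 7 output genes including Dbp and Per1 minus that of Arntl, Npas2 and Clock, was 1.79, where the other uninjured-sire libraries had -0.03 to 0.73 and the injured-sire libraries 1.08 to 2.74. The part of these in the low panel was not tested. Uninjured-sire replicate 23 shared part of the pattern, with role means of -0.36 for chromosome and spindle and -0.39 for cytokinesis genes, but 0.03 for replication genes.

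**Figure D4:**
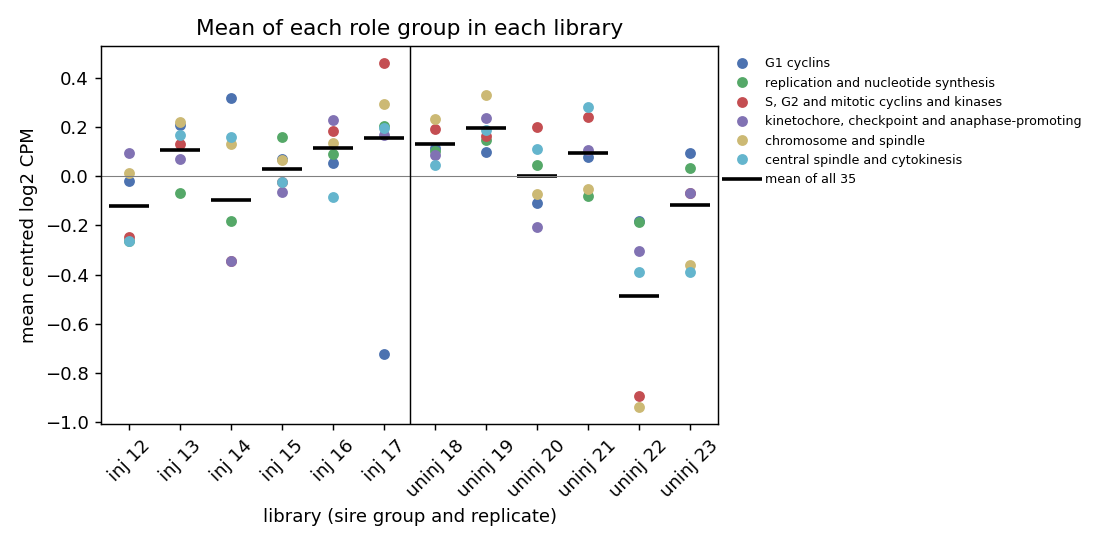
Mean over each role group of log2 CPM minus the gene's mean over 12 libraries, 1 coloured point per role group and library, with a black bar for the mean of all 35 members. Uninjured-sire replicate 22 has the lowest mean of all 35 (-0.49), with the chromosome and spindle genes and the mitotic cyclins and kinases furthest down, and the low G1 point in injured-sire replicate 17 (-0.73) holds the low Ccne1.

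Of the markers of thymocytes, a cell type that divides in the thymus next to the heart, Rag1, Rag2 and Dntt were high in injured-sire replicate 17. This library had 190 counts of Rag1 and 78 of Dntt, genes of lymphocyte receptor rearrangement that developing thymocytes express, where the other 11 libraries had at most 18 and 13, and 27 of Rag2. The rest of the list stood out little or not at all. Ptcra was at 0 counts there and Cd1d1 at 164, where the median of the 12 libraries was 173.5. Cd8b1 had 37 counts against 79 in uninjured-sire replicate 18, and Arpp21 had 65 against 75 in uninjured-sire replicate 22. Themis had 17 against 16 in uninjured-sire replicate 23. The 8 thymocyte markers summed to 16.8 CPM in replicate 17 against 5.09 to 10.5 CPM in the others. Replicate 17 had the highest value of the 12 in 6 members (17.1%), against 8.56% of all genes tested. The part of thymocyte RNA in the panel was not tested; without replicate 17, 20 of 35 members had higher point estimates, the median was 0.07 and 0 were called.

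How far members rose and fell together between animals was measured by Pearson's r of log2 CPM over the 12 libraries for all 595 pairs of members. These pairs share libraries and low counts, so they are given as a description. In 75 pairs (12.6%) r exceeded 0.5, against 6.34% of all pairs of genes tested, and the median r was 0.18 against 0.00. Chromosome and spindle genes had the highest median among themselves, 0.41, and stood at 0.32 with the cytokinesis genes and at 0.31 with the mitotic cyclins and kinases. G1 cyclins and replication genes had a median of 0.00 with each other.

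This co-variation rested on replicate 22. Without that library, 47 pairs (7.90%) exceeded 0.5, against 7.35% of all gene pairs, and the median r was 0.06. Among the chromosome and spindle genes, r ran from 0.31 to 0.70 over 12 libraries and from -0.14 to 0.52 without replicate 22. Leaving out each other library in turn gave 75 to 101 pairs. With the group means removed over 12 libraries there were 87 pairs (14.6%, against 7.21%), and without replicate 16 there were 81 (13.6%, against 7.17%).

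**Figure D5:**
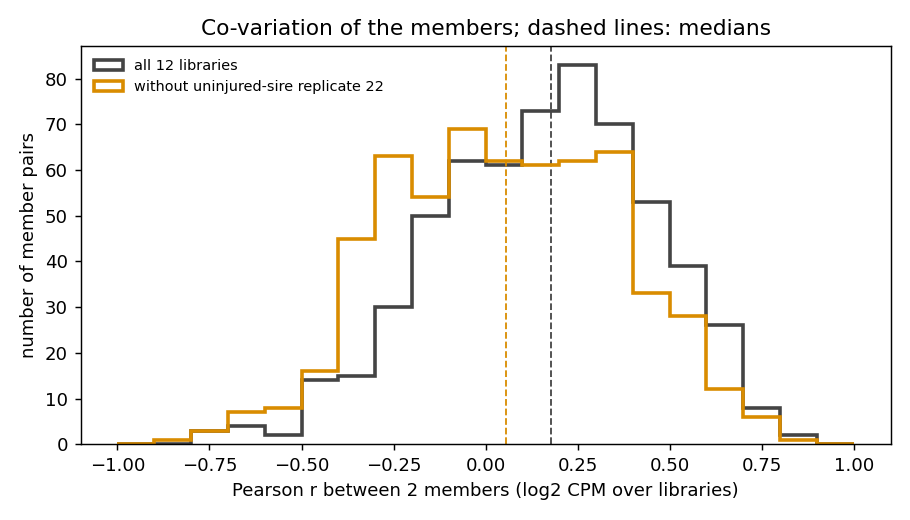
Number of the 595 member pairs by Pearson's r of log2 CPM, over all 12 libraries and over 11 libraries without uninjured-sire replicate 22, with dashed lines at the medians. The median is 0.18 with all libraries and 0.06 without replicate 22.

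By mean r with the other 34 members, Ccna2, Kif11 and Top2a led at 0.29 each, with Nusap1 and Mki67 at 0.27. This order did not hold without replicate 22: Ccna2 had 0.17 and Kif11 0.14, Nusap1 0.09, Mki67 0.08 and Top2a 0.05, while Pcna stood at 0.17 and Plk1, Mcm3 and Ccnb1 at 0.15. The closest pair was Kif11 with Cenpe, both mitotic motors, at 0.84, followed by Ccne2 with Ube2c at 0.80. At the other end Ccnd2 (-0.08), Ccne1 (-0.17) and Cenpf (-0.20) had no partner with r above 0.5. Without replicate 22 the sign of Cenpf turned, to 0.08, with r of 0.59 with Mcm3, 0.58 with Plk1 and 0.52 with Pcna, while Ccnd2 and Ccne1 stayed below 0 at -0.18 and -0.14. Anln, the member with the smallest p between sire groups, had a mean r of 0.06 over 12 libraries and 0.01 without replicate 22.

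Mki67 was set against each of the other 34 members over the 12 libraries. The correlation was positive for 28, and 0 of 34 passed Benjamini-Hochberg adjustment of the two-sided permutation p by either r or rho, with 4 at an unadjusted p under 0.05 for r. The nearest was Ccne2, with r = 0.74 (permutation p = 0.00607, adjusted 0.185) and rho = 0.70 (permutation p = 0.0130, adjusted 0.371). Within the injured-sire libraries, replicate 16 included, r was 0.51. Without the 2 libraries farthest from the median of Mki67, uninjured-sire replicates 22 and 23, r fell to 0.31. Leaving out these libraries also narrows the range of Mki67, which can lower r by itself, so no conclusion is drawn from the fall. Tpx2 (r = 0.70, rho = 0.50) and Cdk1 (r = 0.67, rho = 0.52) had r of 0.11 and 0.43 without them, while Kif20a (r = 0.65, rho = 0.66) kept 0.52, all with an adjusted permutation p for r of 0.185. The raw permutation p for r was 0.0121, 0.0174 and 0.0218 in these 3, and that for rho 0.0978, 0.0896 and 0.0218.

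Mki67 was also set against the mean of each of 12 cell type marker lists, among them cardiomyocyte, endothelial, fibroblast and macrophage markers, and no relation passed adjustment over the 12. The smallest raw permutation p was for the endothelial list, with rho = -0.66 (p = 0.0221, adjusted 0.265) and r = -0.48 (p = 0.113, adjusted 0.879), and r = -0.60 without replicates 22 and 23. Leaving out those 2 libraries moved other lists further: r with the macrophage and leukocyte list went from -0.30 to 0.79, with the lymphocyte list from -0.05 to 0.51, and with the cardiomyocyte list from 0.25 to -0.37. The erythroid list also changed sign, from -0.13 to 0.11. Other lists kept theirs, among them the endothelial list, the fibroblast list (-0.08 to -0.24) and the airway list (0.42 to 0.17). The sign thus depended on those 2 libraries for some lists only.

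The genes outside the panel most like the members' mean were ranked among 12285 candidates by Pearson's r over the 12 libraries. Rbm38, which encodes an RNA-binding protein, was first at 0.90, followed by Iqgap3, a scaffold protein gene linked to dividing cells, at 0.88, then Sh3bgr (0.85), Pgk1 (0.84), Fbxl22, E2f1, Afg3l2, Hspb1 and Mpnd (0.83 each) and Ccdc85a (0.82). Of these 10 genes, 2, Iqgap3 and the transcription factor E2f1, belonged to the cell cycle lists below, which made up 0.684% of the candidates. The likeness of those 2 fell to 0.62 and 0.41 without replicate 22, and that of Fbxl22, Mpnd and Ccdc85a to 0.50, 0.57 and 0.65. Rbm38 stood at 0.95 and Afg3l2 at 0.91 without it. Each of the 10 genes but Afg3l2 was lowest in replicate 22. The ranking itself favours such genes, since the members' mean was lowest in that library (-0.49). There Iqgap3 was at 0.246 CPM, with a range up to 1.82 CPM, and E2f1 at 0.411 CPM, with a range up to 1.63 CPM.

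The rest of the cell cycle machinery was read from 6 lists, in which 0 genes were called in either direction by edgeR, against the background of 0.105%. Of 9 tested CDK inhibitors and pocket proteins, the brakes on G1, 3 had higher and 6 lower point estimates. Cdkn1b, encoding the inhibitor p27, had the smallest p there, with 64.02 ± 2.72 against 71.5 ± 4.96 CPM, or -0.14 ± 0.0580 (SE) in log2 (edgeR adjusted p = 0.455). Of 17 E2F, DREAM and FOXM1 regulators, a list that includes transcription factors of cell cycle genes, 10 were higher and 7 lower, with E2f1 at 0.06 and Foxm1 at 0.11.

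Of 13 G1 and interphase kinases and partners, 10 had higher and 3 lower point estimates. Wee1, the kinase that holds CDK1 inactive, averaged 15.7 ± 2.14 against 11.5 ± 2.29 CPM (log2 fold change 0.47 ± 0.125, SE; edgeR adjusted p = 0.180). Skp2, which targets p27 for degradation, averaged 0.911 ± 0.282 against 1.46 ± 0.332 CPM (edgeR adjusted p = 0.553). Wee1 is also known as a target of the circadian clock, and the part of the clock scores given above in its value was not tested.

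Replication licensing and synthesis genes outside the panel had 15 higher and 11 lower of 26, led by the histone chaperone subunit Chaf1b at 1.21 ± 0.278 against 0.733 ± 0.223 CPM (edgeR adjusted p = 0.545). Of 46 further mitosis genes, 19 were higher and 27 lower. Sgo2a, which encodes a shugoshin that protects centromeric cohesion, averaged 7.67 ± 1.16 against 10.2 ± 0.288 CPM, with no overlap between the groups (background for the injured-sire group lower, 0.893%) and a difference of -0.38 ± 0.117 (SE) in log2 (edgeR adjusted p = 0.254). Cenpa, the centromeric histone, averaged 27.8 ± 2.93 against 33.6 ± 3.57 CPM (edgeR adjusted p = 0.304), and Ncapd2, a condensin subunit, 30.2 ± 3.01 against 27.1 ± 1.31 CPM (edgeR adjusted p = 0.489). Of 11 genes linked to binucleation and cell cycle exit in cardiomyocytes, 7 were higher and 4 lower, with Meis1 at 0.04 and Cdkn1a at 0.08 in log2 fold change.

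With the clock score added to the model, 32 of 35 members had higher point estimates, the median log2 fold change was 0.46 and 5 members had an unadjusted p under 0.05, but 0 were called. Over all genes in the same fit the median was 0.00, and 5.29% had an unadjusted p under 0.05. Those 5 were Kif11 (1.22), Top2a (1.18), Ccnb2 (1.496), Cenpe (1.11) and Cenpf (-0.47), with the smallest edgeR adjusted p at 0.645 for Kif11. Without replicate 22, the only uninjured-sire library whose clock score lay in the injured-sire range, the same model gave 21 of 35 higher, a median of 0.07 and 0 called. Since the groups' clock scores overlap through 1 library only, the clock score and the sire group cannot be told apart here.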

How the data were processed

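Ventricle RNA of 12 mice was sequenced in bulk. The deposited table holds raw read counts per Ensembl gene, made by the authors with featureCounts 2.1.1 (strand setting 2) on Ensembl release 114 of GRCm39, per the file headers. STAR 2.7.10a and Subread 2.0.3 are named in the submitters' processing notes. Another 11 sample columns were not used. Symbols for 51487 of 78317 IDs came from GENCODE M21, used for names only, and these IDs took 99.3% of counts. Gene coordinates are on GRCm39, promoter windows on GRCm38.p6.

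The members and the gene and marker lists were chosen with earlier results of these data known. In R 4.3.3, edgeR 4.0.16 was run on the whole table: low counts were removed with filterByExpr (at least 10 counts, total at least 15), libraries were scaled by TMM, and a two-sided quasi-likelihood F test (robust) was adjusted by Benjamini-Hochberg at 0.05. A prior count of 2 was used for log2 CPM. CPM per kilobase used the table's own exon lengths. Correlations used 100000 permutations, and those of Mki67 with marker lists were added after values were seen. Given in full are Mki67, Top2a, Ccnd1, Ccnd2, Pcna, Cdk1, Ccnb1 and the 6 members with the smallest p (Cdk1 is under both); from each pathway list up to 3 genes with an unadjusted p under 0.05 by smallest p; and the 10 genes most like the members' mean. Genes named beyond that rule were chosen after their values were seen. Alternatives used DESeq2 1.42.0 and limma 3.58.1 (voom), other scalings and filters, covariates and left-out libraries. The fit was tested on simulated data. Pseudogene copies were sought with blastn 2.17.0.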

Additional observations from a re-analysis of the deposited data

Results flagged for a closer look

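Pcna in uninjured-sire replicate 19 stood apart from the other libraries of its group, at 4.94 in log2 CPM, where the nearest was 4.76 and the lowest 4.67. It was the only such library in 70 tests of a gene in a group, where chance gives about 1 in 20, or 3.5.

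Injured-sire replicate 16, which was left out of the comparison, lay above every uninjured-sire library in 7 of 35 members (Mcm5, Pcna, Plk1, Birc5, Cdc20, Nusap1 and Anln), while 19.5% of all genes tested did so. It lay below every uninjured-sire library in 0 members, against 19.5% of all genes.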

How the results depend on the processing

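No paired analysis was possible because no replicate number occurs in both groups. In every alternative run 0 members were called, and of 389 alternative values over 17 results 359 kept their direction and their side of the threshold, or their size. The count of genes called over the whole table, 18, became 134 with the DESeq2 Wald test (which gave 2 members no adjusted p), 236 with no filter, 28 with a filter of 1 CPM in 5 libraries (29 members tested), 0 with the clock score as covariate and 1 with the clock score without replicate 22, and ran from 8 (without injured-sire replicate 13) to 43 (without uninjured-sire replicate 22) with single libraries left out; it was 28 without injured-sire replicate 12 and 9 without injured-sire replicate 14 or uninjured-sire replicate 23. The members' median log2 fold change, 0.07, was 0.02 to 0.10 with single libraries left out and 0.46 with the clock score. The ratio of summed levels was 0.984 to 1.03 with libraries left out, and the pairs with r above 0.5 numbered 47 to 101, with 47 without replicate 22 and 52 without replicates 22 and 23. The cause of these changes was not tested.

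Signs of small estimates changed. Ccnd2, at 0.00 (slightly below 0), was 0.011 with no scaling factor, 0.029 with the clock score, 0.091 with airway and fat scores, and -0.038 to 0.045 with single libraries left out. Mki67 was -0.12 with airway and fat scores and -0.056 to 0.19 with single libraries left out. With the clock score Ccnb1 was 0.76 and Cdc20 0.053. With the clock score and without replicate 22, Mki67 was -0.32, Ccnd1 -0.16, Cdk1 -0.082, Ccnb1 0.88 and Tpx2 -0.060. That setting, the left-out libraries for correlations and summed levels, and the sum over 31 members were chosen after seeing the data, and the covariates with earlier results known. Depth limits the low members most: 7 averaged under 1 CPM, where a library holds few counts of each.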
